A study of Mus musculus with 2 samples.

Results

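The TCF/LEF genes encode the transcription factors at the end of the canonical Wnt pathway. The mouse has 4 of them, Lef1, Tcf7, Tcf7l1 and Tcf7l2, and all 4 were matched by gene symbol among the 32289 features counted in nuclei of the anterior hypothalamus. They are described here across neuron types, vascular cells, the oligodendrocyte lineage and other glia of an aged and a young library. The genes were chosen by name, with their levels by cell type and age in these same libraries already known, so those levels are given as a description and no test is attached to them.

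TCF/LEF proteins bind DNA through a high mobility group box that recognises a short motif with the core CTTTGA. Without a Wnt signal they recruit TLE co-repressors, and after a Wnt ligand engages a Frizzled receptor and Lrp5 or Lrp6, beta-catenin escapes degradation, enters the nucleus and converts them to activators. Lef1 is known as an effector of Wnt signalling in brain endothelium, where that pathway maintains the blood-brain barrier. Tcf7l2 is known for its high level in thalamic and habenular neurons and in oligodendrocyte-lineage cells on their way to myelination. Tcf7 was first described as a T-cell factor, and Tcf7l1 acts mostly as a repressor.

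The study asked about vasopressin neurons in ageing. Tissue spanning the preoptic area and anterior hypothalamus was pooled from 5 male mice of 22 months (aged library) and from 5 male mice of 3 months (young library). The young mice were wild type, and the genotype of the aged mice was not stated separately. Nuclei were cleared of myelin debris with magnetic beads, stained with DAPI, sorted and loaded on a 10x Genomics chip with an aim of 10000 per library. There was 1 library per age and no replicate, so age, the pool of mice, the dissection and the library cannot be told apart, and every interval below covers counting error only.

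Barcodes with at least 500 genes and at most 5% mitochondrial counts numbered 8597 (aged) and 10437 (young), with medians of 5699 and 5567 unique molecular identifiers (UMIs). Of these barcodes, 25 occurred in both libraries. After removal of predicted doublets, 8199 and 9939 nuclei remained, and clusters built without the 4 genes were named from marker lists. Each name stands for nuclei that resemble the type. The nuclei comprised 4971 aged and 6417 young neurons, 1881 and 2133 oligodendrocytes, 181 and 232 oligodendrocyte precursors, 2 and 22 committed precursors, 154 and 388 astrocytes, 408 and 475 microglia, 21 and 24 endothelial cells, 28 and 39 mural cells, and 17 and 96 fibroblasts. A shallow cluster (521 aged, 89 young nuclei) could not be named, and its nuclei are in none of the classes. Levels are UMIs of a gene per 1000000 UMIs of the class (CPM).

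In the GENCODE M21 annotation of GRCm38, Lef1 spans 114 kb of the plus strand of chromosome 3, Tcf7l1 163 kb of the minus strand of chromosome 6, Tcf7 30.6 kb of the minus strand of chromosome 11 and Tcf7l2 192 kb of the plus strand of chromosome 19. Lef1, Tcf7 and Tcf7l1 each overlap at least 1 gene on the opposite strand. Strand use in counting is unknown here, so reads of such partners cannot be told apart from theirs.

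Lef1 and Tcf7 are themselves known Wnt targets, so the TCF/LEF motif was looked up in promoter windows of the RefSeq table for GRCm38.p6, each reaching from 250 bases before to 50 bases after an annotated start. The motif CTTTGA, on either strand (TCAAAG on the other), was in 5257 of 32851 windows (16.003%). The 4 genes have 9 windows, and 1 of them, at the most downstream of 4 Lef1 starts, held it. The table matched 7 of 13 listed feedback targets of the pathway, not Notum, Znrf3, Lgr5, Apcdd1, Ccnd1 or Myc, and 3 of the 10 matched windows held the motif, those of Dkk1, Sp5 and Sp8. The Lef1 stretch is shown because it is the only member window with the motif, and the Sp5 stretch because Sp5 is a well-known direct target; capitals mark the motif on either strand. Both are on the plus strand and run 5′ to 3′. The Lef1 stretch, chr3:131156099-131156194, lies inside Lef1 and in no GENCODE exon; its matches begin 180 and 120 bases before the start. The Sp5 stretch, chr2:70474704-70474839, lies upstream of Sp5, in no annotated gene; its matches begin 204 and 104 bases before the start.
Lef1: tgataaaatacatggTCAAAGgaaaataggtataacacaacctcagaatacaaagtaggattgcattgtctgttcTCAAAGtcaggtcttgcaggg
Sp5: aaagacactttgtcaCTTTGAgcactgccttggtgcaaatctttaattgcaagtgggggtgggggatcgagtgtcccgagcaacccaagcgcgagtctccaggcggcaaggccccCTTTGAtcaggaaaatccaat
A match is a run of letters, not a site shown to be bound. Sp5 itself had 6 aged and 4 young UMIs in all kept barcodes, too few to compare.

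Each of the 4 genes had its own pattern over cell types, and the same groups led in both libraries. Lef1 was highest in endothelial cells and, among neurons, in a thalamic-type sub-cluster. Tcf7 was highest, among groups with at least 10 of its UMIs in each library, in striatal projection-type neurons. Tcf7l1 was found in astrocytes, fibroblasts and committed oligodendrocyte precursors. Tcf7l2 was the most widely detected, with its highest levels in committed precursors, thalamic-type neurons, a second glutamatergic sub-cluster and astrocytes. Over all kept barcodes the aged and young libraries held 530 and 261 UMIs of Lef1, 218 and 281 of Tcf7, 247 and 491 of Tcf7l1, and 3066 and 4073 of Tcf7l2.

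**Figure D1:**
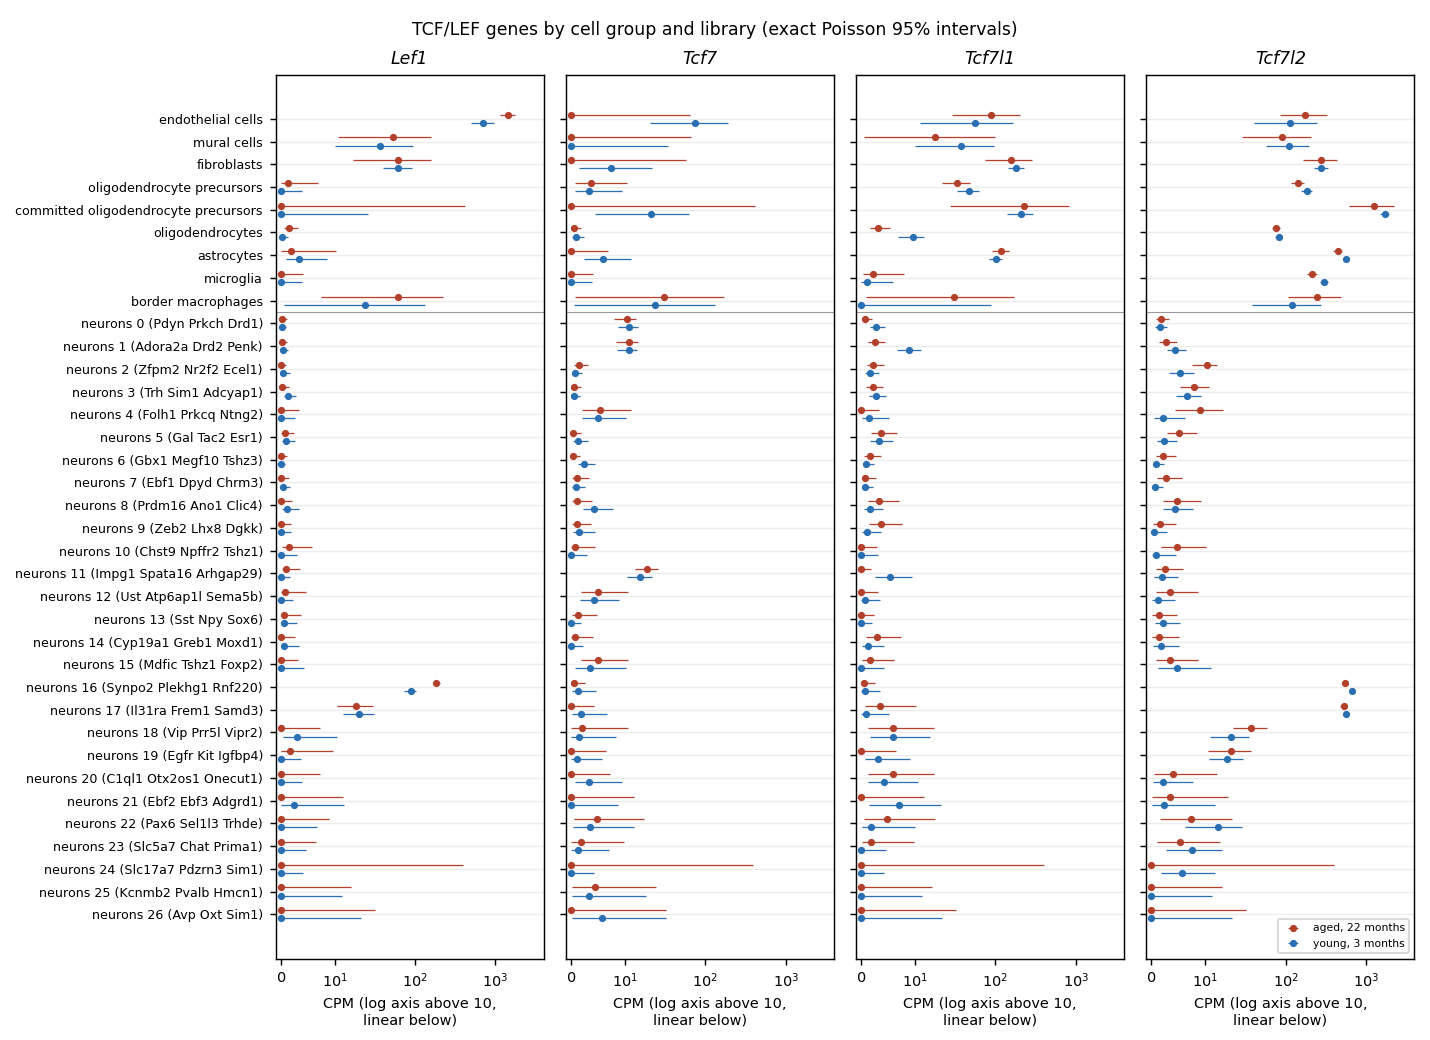
Level of each gene in CPM (x axis, logarithmic above 10 and linear below) in 9 non-neuronal classes and 27 neuron sub-clusters (y axis), for the aged (red) and young (blue) library; points are levels and bars are exact Poisson 95% intervals. Lef1 stands highest in endothelial cells at 1424 CPM aged and 709 CPM young, and neuron sub-cluster 16 stands apart from the other neurons for Lef1 and, with sub-cluster 17, for Tcf7l2.

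Lef1 in endothelial cells was carried by 81 UMIs in 21 aged nuclei and 38 UMIs in 24 young nuclei. Its aged level was 1424 CPM (95% interval 1130 to 1769) and its young level 709 CPM (502 to 974), a ratio of 2.01 (1.35 to 3.03). The intervals of the 2 libraries did not overlap, but they do not cover the spread between nuclei. The 2 highest aged nuclei held 16 and 12 of the 81 UMIs. Lef1 UMIs were found in 19 of 21 aged nuclei (90.5%, exact Clopper-Pearson 69.6 to 98.8%) and 15 of 24 young nuclei (62.5%, 40.6 to 81.2%). The intervals of these shares overlapped. With every nucleus thinned to 1000 UMIs, which left out 2 aged and 6 young nuclei, the shares were 84.2% and 44.4%. The median nucleus held 3 Lef1 UMIs when aged and 1 when young, and the highest held 16 and 8. Microglia, of similar depth, had no Lef1 UMI in 408 aged or 475 young nuclei, which allows at most 3.29 and 3.22 CPM (here and below, the limit for 0 UMIs is 3 counts over the UMIs of the group, which is lower than the upper bound of the Poisson interval).

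All 11 endothelial markers were detected in both libraries, though the free RNA share in these nuclei was estimated at 46.7% aged and 43.9% young. Among 251 genes with at least 50 UMIs in endothelial nuclei, 21.9% were at least 1.5-fold higher in the aged library, so a 1.5-fold ratio was common in so few nuclei. The share of genes past 2-fold, where Lef1 lay, is not given here. Of the barrier genes, the glucose transporter Slc2a1 had 90 aged and 46 young UMIs and the organic anion transporter Slco1a4 had 181 and 88. The tight junction gene Cldn5 had 100 and 97 and the adhesion gene Pecam1 20 and 74, so the markers did not move together. Mural markers were seen in the aged endothelial nuclei for 8 of 10 genes, led by Rgs5 with 12 UMIs, and in the young ones for 1 of 10, Rgs5 with 2; the summed counts were small, and their part in the Lef1 difference was not tested. The mural markers Kcnj8 and Abcc9 were at 0 in both libraries. Pdgfrb, Vtn and Notch3 had 2 aged UMIs each and Atp13a5 had 1, with 0 young UMIs of each. Of the T-cell markers, Bcl11b had 4 and 5 UMIs and Cd4 had 1 and 0, while the other 8, among them Cd3e, Skap1 and Themis, were at 0. Those genes lay instead in the border macrophage cluster (15 and 24 nuclei), with 35 and 15 UMIs of Skap1 and 7 and 2 of Cd3e, where Lef1 had 2 and 1 UMIs and Tcf7 1 and 1.

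In the other vascular cells Lef1 was low. Mural cells, which wrap the vessels, held 3 aged and 4 young UMIs (53.5 and 37.1 CPM), with at most 1 UMI in a nucleus. Fibroblasts held 4 and 25 UMIs at 62.1 CPM (16.9 to 159) and 62.3 CPM (40.3 to 92.0). The fibroblasts fell into a cluster of 17 aged and 63 young nuclei led by Slc6a13, and a Bnc2-led cluster of 33 young nuclei and no aged one. Lef1 in the first was 62.1 CPM aged and 148 CPM young (ratio 0.418, 0.106 to 1.22), and the second held 1 Lef1 UMI. Because the clusters differ in number between the libraries, the values for all fibroblasts compare different mixtures.

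**Figure D2:**
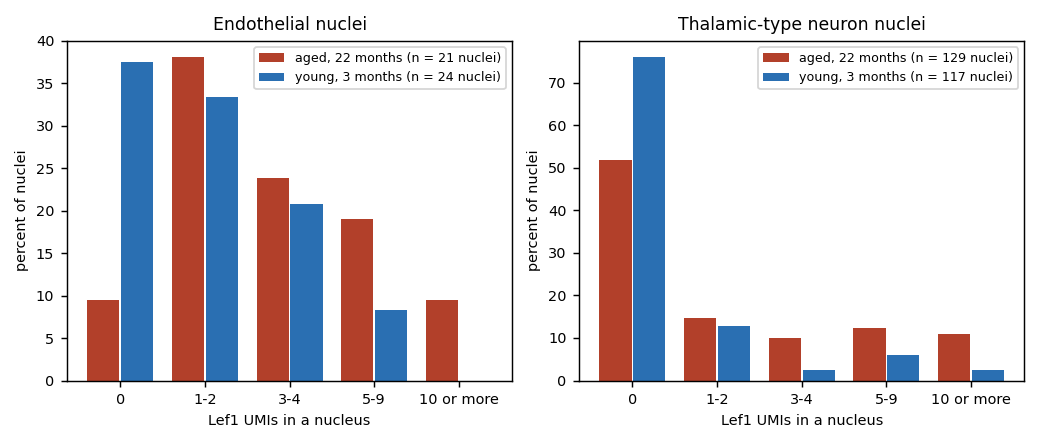
Share of nuclei in percent (y axis) by the number of Lef1 UMIs in a nucleus (x axis), in endothelial cells (left) and thalamic-type neurons (right) of the aged (red) and young (blue) library. In endothelial cells 2 of 21 aged and 9 of 24 young nuclei had no Lef1 UMI, and in thalamic-type neurons 14 aged and 3 young nuclei had 10 or more.

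Neurons as a whole had 421 aged and 184 young Lef1 UMIs, at 9.11 CPM (8.26 to 10.0) and 3.31 CPM (2.85 to 3.82). The ratio was 2.76 (2.31 to 3.30), and 2.99% of 18006 genes with at least 50 UMIs were 1.5-fold or more higher in aged neurons. Most of these UMIs lay in a single glutamatergic sub-cluster of 129 aged and 117 young nuclei, led by Synpo2, Plekhg1 and Rnf220. It was called thalamic-type because all 10 listed markers were detected, among them the axon guidance gene Ntng1 (8095 and 5290 UMIs), the nuclear receptor Rora (4603 and 2719) and the homeobox genes Lhx9 (161 and 141) and Gbx2 (22 and 25). It held 393 of the aged and 138 of the young Lef1 UMIs. In the rest of the neurons Lef1 had 28 and 46 UMIs, at 0.636 and 0.851 CPM, with the difference in the opposite direction and an interval that includes equality (ratio 0.747, 0.450 to 1.22).

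Within the thalamic-type neurons, Lef1 was at 183 CPM (166 to 202) aged and 88.1 CPM (74.0 to 104) young, a ratio of 2.08 (1.71 to 2.54). Of 8766 genes measured there, 5.48% were at least 1.5-fold higher and 8.46% lower. Lef1 UMIs were found in 62 of 129 aged nuclei (48.1%) and 28 of 117 young nuclei (23.9%), or 13.2% and 5.13% after thinning to 1000 UMIs. The median depth of these nuclei was 13852 UMIs aged and 11203 young. In oligodendrocytes, a type at background for Lef1, the unthinned shares were 0.319% and 0.0469% at median depths of 2023 and 1891 UMIs. The nuclei were uneven, since the median held no Lef1 UMI while the highest held 42 (aged) and 31 (young).

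The thalamic-type neurons were not uniform, and Lef1 followed their subgroups. Clustered again, they gave 5 subgroups, and the levels of Lef1 ran from 0 to 363 CPM between them. In the subgroup led by Slc4a4, Heg1 and Shisa6 Lef1 was at 363 CPM (315 to 416) aged and 313 CPM (175 to 517) young, from 204 and 15 UMIs. In the subgroup led by Adamtsl3, Trhde and Prkcd it was at 263 CPM (218 to 314) and 258 CPM (212 to 310), from 122 and 110 UMIs. These 2 subgroups held the highest levels, and in neither did the libraries differ beyond the counting intervals. The subgroup led by Npsr1, Cadps2 and Glis3 had no Lef1 UMI in 13 aged and 38 young nuclei, which allows at most 20.3 and 5.99 CPM.

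The remaining subgroups were intermediate. In the one led by Col12a1, Itga8 and Ror1, a Wnt co-receptor gene, Lef1 was at 84.3 CPM (63.0 to 111) aged and 25.5 CPM (10.3 to 52.6) young, from 52 and 7 UMIs, a ratio of 3.31 (1.496 to 8.63). In the one led by Nox4 it was at 42.4 CPM (23.7 to 69.9) and 19.0 CPM (6.96 to 41.3), from 15 and 6 UMIs. The Col12a1 subgroup was thus the only one of the 5 in which the interval of the Lef1 ratio lay above 1.

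The mix of subgroups differed between the libraries. The Slc4a4 subgroup made up 16.3% of aged and 4.27% of young thalamic-type nuclei (21 and 5 nuclei), while the Npsr1 subgroup, without Lef1, made up 10.1% and 32.5% (13 and 38). With the subgroups weighted alike, the log2 ratio of Lef1 in thalamic-type neurons was 0.32 in place of 1.06. Weighted alike means that both libraries were given the same weights, not that every group counted equally. The weight of a subgroup or sub-cluster was its share of nuclei, averaged over the 2 libraries. For all neurons the log2 ratio was 1.46 as summed, 0.76 with the sub-clusters weighted alike and 0.14 with sub-clusters and subgroups weighted alike. Whether the mix differed with age or with where the tissue was cut cannot be told apart here.

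**Figure D3:**
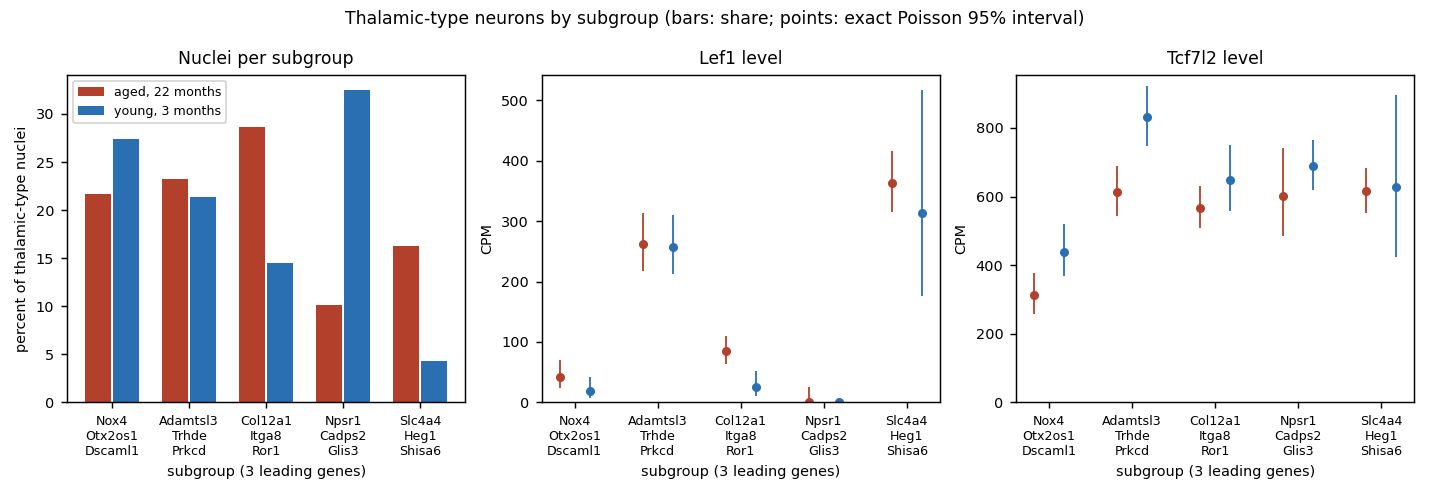
The 5 subgroups of thalamic-type neurons (x axis, named by leading genes) with their share of thalamic-type nuclei in percent (left), Lef1 level in CPM (middle) and Tcf7l2 level in CPM (right), for the aged (red) and young (blue) library; bars on points are exact Poisson 95% intervals. The Slc4a4 subgroup, at 363 and 313 CPM of Lef1, made up 16.3% of aged and 4.27% of young nuclei, and the Npsr1 subgroup, at 0, made up 10.1% and 32.5%.

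**Figure D4:**
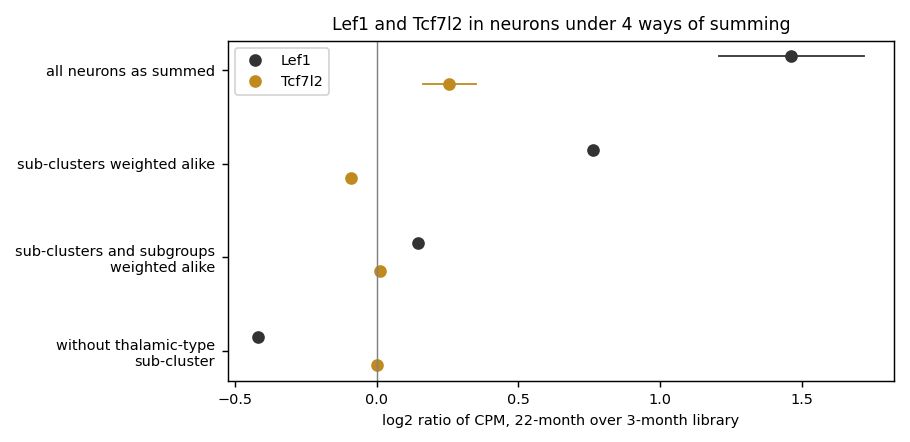
Log2 ratio of CPM, aged over young, in neurons (x axis) for Lef1 (black) and Tcf7l2 (ochre) under 4 ways of summing (y axis); bars are exact conditional 95% intervals where the ratio is of summed UMIs over all neurons. Lef1 goes from 1.46 as summed to 0.14 with sub-clusters and subgroups weighted alike, and Tcf7l2 from 0.26 to 0.01.

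Among neuron sub-clusters Tcf7 was highest in the striatal projection-type neurons, the GABAergic neurons that carry dopamine receptors. Over the 3 sub-clusters so named it had 146 aged UMIs in 1245 nuclei and 162 young UMIs in 1469 nuclei, at 12.2 CPM (10.3 to 14.4) and 11.9 CPM (10.2 to 13.9). The libraries did not differ beyond counting error (ratio 1.03, 0.815 to 1.29). The sub-cluster led by Pdyn and the D1 receptor gene Drd1 was at 10.6 and 11.4 CPM, the one led by the adenosine receptor gene Adora2a and the D2 receptor gene Drd2 at 11.2 in both, and the one led by Impg1 at 18.8 and 15.4 CPM. Tcf7 UMIs were found in 10.6% and 9.53% of striatal projection-type nuclei, against 0.106% and 0.188% of the shallower oligodendrocytes. Thinned to 1000 UMIs, the shares in striatal projection-type nuclei were 0.884% and 1.43%. In other GABAergic neurons Tcf7 was at 1.58 and 1.81 CPM. These include sub-clusters that matched the striatal marker list best but were not given its name. Tcf7 was at 5.43 and 4.99 CPM in the one led by Folh1 and at 5.11 and 4.32 in the one led by Ust. It was at 5.05 and 3.50 CPM in the one led by Mdfic and at 0.795 and 0 in the one led by Chst9. In barcodes of at most 100 UMIs, which hold mostly free RNA, Tcf7 was at 5.23 and 2.33 CPM, from only 12 and 4 UMIs. Microglia held no Tcf7 UMI in either library.

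Tcf7l1 was found mainly in astrocytes, fibroblasts and the precursors of oligodendrocytes, while microglia held 2 aged UMIs and 1 young UMI. Astrocytes held 63 aged and 121 young UMIs, at 117 CPM (89.8 to 150) and 102 CPM (84.5 to 122), with a UMI in 28.6% and 24.5% of nuclei. The ratio was 1.15 (0.833 to 1.57), so the ages did not differ beyond counting error. Fibroblasts were at 155 CPM (74.4 to 285) and 182 CPM (143 to 229), from 10 and 73 UMIs. Of the young UMIs, 53 came from the Bnc2-led cluster, which had no aged nucleus.

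Along the oligodendrocyte lineage Tcf7l1 was highest in committed precursors, the short-lived cells that express Gpr17, Enpp6 and Bmp4. They held 29 UMIs in 22 young nuclei (207 CPM, 139 to 297), of which 10 were in 1 nucleus, and 2 UMIs in 2 aged nuclei. Oligodendrocyte precursors, the dividing progenitors marked by Pdgfra, were at 33.2 CPM (21.9 to 48.4) aged and 46.6 CPM (33.7 to 62.8) young. Mature oligodendrocytes had 13 aged and 42 young UMIs, at 3.18 CPM (1.69 to 5.44) and 9.58 CPM (6.90 to 12.9), a ratio of 0.332 (0.164 to 0.631). In oligodendrocytes 2.71% of 10931 genes were at least 1.5-fold lower in the aged library. Tcf7l1 in barcodes of at most 100 UMIs was at 4.80 and 4.66 CPM, from only 11 and 8 UMIs. The aged value in oligodendrocytes was below this and the young value above it, but so few counts do not settle either order.

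In neurons Tcf7l1 was rare, with 83 aged and 144 young UMIs at 1.80 CPM (1.43 to 2.23) and 2.59 CPM (2.18 to 3.05), a ratio of 0.694 (0.523 to 0.916). The lower aged value lay in the striatal projection-type neurons, with 16 and 78 UMIs (1.34 and 5.74 CPM, ratio 0.233, 0.127 to 0.403). Their sub-cluster led by Adora2a and Drd2 had 12 and 51, with 11 of the young UMIs in 1 nucleus. Other GABAergic neurons had 52 and 43 UMIs, a ratio of 1.46 (0.955 to 2.24). The share of striatal projection-type nuclei with a Tcf7l1 UMI was 1.04% aged and 3.199% young, against 0.490% and 0.211% of the shallower microglia. Beside the barcodes of at most 100 UMIs (4.80 and 4.66 CPM), the aged level in these neurons was lower and the young level slightly higher. That comparison is rough, since those barcodes held only 11 and 8 Tcf7l1 UMIs.

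Tcf7l2 in the oligodendrocyte lineage peaked at the committed stage. Committed precursors held 241 UMIs in 22 young nuclei, at 1720 CPM (1510 to 1951), and 11 UMIs in 2 aged nuclei, at 1250 CPM (624 to 2236). In the young library 20 of 22 nuclei carried it, and 1 nucleus held 70 UMIs. With 2 aged nuclei, no difference at this stage could be measured (ratio 0.727, 0.358 to 1.32). Oligodendrocyte precursors had 115 and 170 UMIs, at 142 CPM (117 to 170) and 184 CPM (158 to 214), a ratio of 0.768 (0.601 to 0.979). The interval lay below 1, and the ratio was short of the 1.5-fold that 5.47% of 6193 genes passed in that direction. Mature oligodendrocytes were at 75.8 CPM (67.6 to 84.8) and 81.8 CPM (73.6 to 90.8), from 310 and 359 UMIs, a ratio of 0.927 (0.793 to 1.08). The order from committed precursors to precursors to oligodendrocytes was the same in both libraries, with no overlap of intervals between the stages. These intervals do not cover the spread between nuclei, and the aged committed stage rests on 2 nuclei. A UMI was seen in 40.3% and 43.5% of precursors and in 13.3% and 14.0% of oligodendrocytes.

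Among neurons Tcf7l2 marked 2 glutamatergic sub-clusters. Thalamic-type neurons carried it in 129 of 129 aged and 115 of 117 young nuclei, at 550 CPM (519 to 583) and 668 CPM (628 to 710), from 1181 and 1047 UMIs. The aged level was lower, at a ratio of 0.824 (0.757 to 0.896), while Lef1 in the same nuclei was higher. Unlike Lef1, Tcf7l2 was present in all 5 subgroups, from 314 to 615 CPM aged and from 439 to 831 CPM young. With the subgroups weighted alike its log2 ratio was -0.29, beside -0.28 as summed. The intervals of the ratio lay below 1 in the Nox4 subgroup (0.714, 0.551 to 0.922) and the Adamtsl3 subgroup (0.738, 0.629 to 0.865) and included 1 in the other 3. As a background, in the sub-cluster led by Pdyn and Drd1 a Tcf7l2 UMI was seen in 1.67% of 539 aged and 1.43% of 631 young nuclei.

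The second sub-cluster, of 85 aged and 116 young glutamatergic nuclei led by Il31ra, Frem1 and Samd3, had 454 and 622 Tcf7l2 UMIs, at 528 CPM (481 to 579) and 573 CPM (528 to 619). It was given no type. Of the 10 thalamic-type markers 5 were detected and none was among its 10 leading genes, against 10 and 3 in the thalamic-type sub-cluster. The shared ones included Slc17a6 (281 and 277 UMIs), Rora (931 and 1388) and Calb2 (78 and 82), while Gbx2 was at 0 and Shox2 had 1 and 0 UMIs. It carried Tcf7l2 in 71.8% and 66.4% of nuclei, and the level differed widely within it. The subgroup led by Adarb2 was at 1020 and 984 CPM, the one led by Dab2 and Rxfp2 at 1080 and 798 (ratio 1.35, 1.09 to 1.67), and the one led by Nox4 and Zeb2 at 678 and 641. The one led by Fst and Grik1 was lower in the aged library, at 252 and 432 CPM (0.584, 0.404 to 0.835), and the one led by Nfia, Nts and Nfib higher, at 131 CPM (89.3 to 187) and 56.9 CPM (29.4 to 99.4). The ratio of Tcf7l2 over the whole sub-cluster was 0.923 as summed and 1.12 with the subgroups weighted alike, so its direction depended on the weighting. Lef1 in the whole sub-cluster had 16 and 22 UMIs, at 18.6 and 20.3 CPM.

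All neurons together had 1844 aged and 1860 young Tcf7l2 UMIs, at 39.9 CPM (38.1 to 41.8) and 33.4 CPM (31.9 to 35.0), a log2 ratio of 0.26 (0.16 to 0.35). Without the thalamic-type sub-cluster the levels were 15.05 and 15.04 CPM and the log2 ratio 0.00. With the sub-clusters weighted alike it was -0.09. Thalamic-type neurons were 2.60% of aged and 1.82% of young neurons, and whether that share differed with age or with the dissection cannot be told apart. In GABAergic neurons other than the striatal projection type, Tcf7l2 was scarce but higher in the aged library, with 149 and 112 UMIs at 5.62 CPM (4.76 to 6.60) and 3.50 CPM (2.89 to 4.22), a ratio of 1.60 (1.25 to 2.07). A UMI was seen in 3.34% and 1.58% of those nuclei, the young share being close to that given above as a background for the sub-cluster led by Pdyn and Drd1. The share of all genes past 1.5-fold was not computed for these neurons. Barcodes of at most 100 UMIs were at 30.5 CPM aged and 43.6 CPM young, from 70 and 75 UMIs. All barcodes outside the limits on genes and mitochondrial counts were at 54.7 and 44.8 CPM. The free RNA share was estimated at 9.81% aged and 9.95% young in neurons as a whole. Its part in the low levels of these GABAergic neurons was not tested.

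Astrocytes and microglia both had less Tcf7l2 in the aged library. Astrocytes had 239 and 677 UMIs, at 444 CPM (389 to 503) and 570 CPM (528 to 614), a ratio of 0.779 (0.669 to 0.904), with a UMI in 72.1% and 73.5% of nuclei. Microglia had 195 and 279 UMIs, at 214 CPM (185 to 246) and 300 CPM (266 to 337), a ratio of 0.714 (0.591 to 0.860), with a UMI in 33.8% and 40.0%. After thinning to 1000 UMIs the shares were 30.1% and 42.7% of astrocytes and 15.8% and 24.1% of microglia. The free RNA share was estimated at 17.0% aged and 8.30% young in astrocytes and at 14.2% and 11.9% in microglia, and with it subtracted the ratios were 0.856 and 0.730. Neither ratio reached 1.5-fold, which 6.09% of 5979 genes passed in that direction in astrocytes and 5.26% of 6861 in microglia. Fibroblasts did not differ beyond counting error, at 279 and 277 CPM (ratio 1.01, 0.577 to 1.67). Endothelial cells had 10 and 6 UMIs and mural cells 5 and 12.

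Lef1 and Tcf7l2 met in the same nuclei in the thalamic-type neurons. All 62 aged and all 28 young nuclei with a Lef1 UMI also had a Tcf7l2 UMI, and a further 67 and 87 had Tcf7l2 without Lef1; since nearly every nucleus there carried Tcf7l2, this overlap follows from its share. In the Il31ra sub-cluster the genes lay mostly in different nuclei. There Lef1 was seen in 4 of 61 aged and 3 of 77 young nuclei with Tcf7l2, and in 6 of 24 and 9 of 39 of those without. In endothelial cells 13 aged and 13 young nuclei had Lef1 without Tcf7l2, and 6 and 2 had both. Per kilobase of gene span, the Lef1 level in endothelial cells was 12.5 CPM per kb aged and 6.23 young against 0.916 and 0.584 for Tcf7l2, while in thalamic-type neurons it was 1.61 and 0.773 against 2.87 and 3.48. Lef1 was thus the higher of the pair in endothelium and Tcf7l2 in thalamic-type neurons, in both libraries on this scale.

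Vasopressin neurons gave the study its theme. The sub-cluster led by Avp and Oxt had 11 aged and 16 young nuclei and 1 UMI of the 4 genes, of Tcf7 in a young nucleus. With so few nuclei, 0 UMIs allow up to 26.2 CPM (aged) and 17.5 CPM (young). Both limits lie above the 12.2 and 11.9 CPM of Tcf7 in striatal projection-type neurons, so lower levels would be missed. Avp was also a leading gene of the suprachiasmatic-like sub-cluster led by Vip, with 77 aged and 107 young nuclei. There Tcf7l2 had 19 and 14 UMIs, at 37.4 and 20.9 CPM. Oxt and Avp were among the leading genes of the shallow unnamed cluster too, but most of its other leading genes encode ribosomal proteins. Its median depth was 687 UMIs, and it cannot be called a group of Avp or Oxt neurons. It held 26 and 4 Tcf7l2 UMIs.

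The list of other pathway genes held 102, from ligands to nuclear partners. In neurons 89 had at least 50 UMIs, of which 4 were at least 1.5-fold higher and 4 at least 1.5-fold lower in the aged library. These ratios are of summed UMIs, and the mix of neuron types differed between the libraries. The sub-cluster led by Slc17a7, Pdzrn3 and Sim1, for example, had 1 aged and 71 young nuclei. The part of this mix in the ratios of the list was not tested. Among all 18006 genes 2.99% were higher and 6.37% lower. The list had 8.99% in either direction beside 9.36% of all genes, and the median log2 ratio was -0.04 for the list and 0.02 for all genes. Past 1.5-fold among ligands, Wnt10b was higher (41 and 20 UMIs, ratio 2.47, 1.41 to 4.45) and Wnt1 lower (22 and 50 UMIs, 0.530, 0.306 to 0.892). Among receptors Fzd6 was higher (37 and 15 UMIs, 2.97, 1.59 to 5.83) and Fzd2 lower (17 and 36 UMIs, 0.569, 0.300 to 1.04). The secreted inhibitor Sostdc1 was higher (158 and 123 UMIs, 1.55, 1.21 to 1.97) and the secreted modulator Dkk2 lower (84 and 183 UMIs, 0.553, 0.422 to 0.720). The remaining 2 were the feedback genes Nkd1 and Notum, given below. Short of 1.5-fold were the ligand Wnt2b (0.713, 0.606 to 0.839), Rspo3, which amplifies Wnt signals (0.713, 0.625 to 0.812), the receptor gene Ror2 (0.680, 0.599 to 0.770) and beta-catenin itself, Ctnnb1, at 62.0 and 52.5 CPM (1.18, 1.12 to 1.24).

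Feedback targets are genes that Wnt signalling induces, many of which damp or tune it. Of 11 measured in neurons, 1 was at least 1.5-fold higher, Nkd1 (1.51, 1.11 to 2.05), and 2 lower, Notum (0.646, 0.421 to 0.977) and Sp8 (0.482, 0.309 to 0.734), beside the 2.99% and 6.37% of all genes. At 2-fold 1 remained, Sp8, and of the 5 with at least 200 UMIs none passed 1.5-fold. Axin2, the most used reporter of the pathway, had 542 aged and 849 young UMIs in neurons, a ratio of 0.769. In thalamic-type neurons, where Lef1 was higher, Axin2 had 43 and 61 UMIs, a ratio of 0.515 (0.340 to 0.773). It was the only 1 of 4 feedback targets measured in these neurons to pass 1.5-fold, beside 5.48% of all genes higher and 8.46% lower. There 46 listed genes were measured, of which 1 was at least 1.5-fold higher and 6 lower, 15.2% in either direction beside 13.9% of all genes. The higher one was a receptor gene. The lower ones included the ligand Wnt4 (0.529, 0.287 to 0.960), Rspo1 (0.542, 0.302 to 0.960) and Dkk2 (0.317, 0.185 to 0.526). No weighting by sub-cluster or subgroup was made for the listed genes or the feedback targets, in these neurons or in all neurons.

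In glia few listed genes passed 1.5-fold. Of 49 measured in oligodendrocytes 1 was higher, the ligand Wnt5b (117 and 81 UMIs, 1.55, 1.16 to 2.08), and 1 lower, Wnt2b (0.621, 0.350 to 1.08), beside 7.07% higher and 2.71% lower among all genes. The kinase gene Csnk1a1 was at 1.24 (1.12 to 1.36), Porcn, which acylates Wnt ligands, at 0.783 (0.581 to 1.05), and Dvl1 at 0.820 (0.634 to 1.06). Of 38 in oligodendrocyte precursors 1 was higher, the co-receptor Lrp5 (1.76, 0.997 to 3.15), and 5 lower, beside 6.72% and 5.47%. The lower ones included Znrf3, a ligase that removes Frizzled receptors (62 and 120 UMIs, 0.587, 0.425 to 0.804), and Bcl9, which links beta-catenin to its co-activators (52 and 99 UMIs, 0.597, 0.418 to 0.843); Csnk1a1 was at 1.16 there. Of 35 in astrocytes none passed 1.5-fold in either direction beside 12.7% of all genes, and the named ones ran from Tnks at 0.765 (0.502 to 1.14) and Znrf3 at 0.943 to Apc at 1.10 and Gsk3b at 1.15 (0.938 to 1.40). Of 31 in microglia 3 were higher and 1 lower, beside 7.58% and 5.26%: the co-repressor genes Tle5 (1.58, 1.10 to 2.29) and Tle3 (0.583, 0.353 to 0.947) went opposite ways. Gsk3b was at 1.31 (1.10 to 1.57) and Fbxw11, a ligase subunit, at 0.749 (0.582 to 0.961) in microglia. In fibroblasts, whose clusters differ between the libraries, 4 of 15 were higher and 4 lower, 53.3% in either direction beside 46.7% of all 2005 genes measured. No listed gene reached 50 UMIs in endothelial cells.

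Over 31 cell groups with at least 20 nuclei in each library, the levels of 11743 genes were compared with those of each TCF/LEF gene by Pearson's r of log2(CPM + 5), averaged over the libraries. Groups share libraries and differ in depth, so r is a description. Lef1 was most like Igf1r (0.84), Igfbp7 (0.81), Mgp (0.79), Strn3 (0.78) and Polk (0.77). Tcf7 was most like Grasp (0.85), Lrrc10b (0.83), Plxnd1 (0.82), Tomm70a (0.82) and Sh3rf2 (0.82). Tcf7l1 was most like Epas1 (0.92), Cyp2d22 (0.91), Nhsl1 (0.90), Cecr2 (0.88) and Rgcc (0.87). Among the genes most like Tcf7l2 were Cnksr3 (0.79), Ctnnd1 (0.78), Nek7 (0.74) and Tnfaip8 (0.73). Between the TCF/LEF genes r was 0.58 for Lef1 and Tcf7l2, 0.57 for Tcf7l1 and Tcf7l2, 0.48 for Lef1 and Tcf7l1, and at most 0.22 for each pair with Tcf7.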

How the data were processed

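Per the file headers, the authors deposited unfiltered matrices of raw UMI counts per gene and barcode, written by Cell Ranger 4, with no normalisation. The sources used here do not give the genome build, the annotation, or how introns and strand were counted. Barcodes with at least 500 genes and at most 5% mitochondrial counts were kept, and Scrublet (in scanpy 1.11.5) removed predicted doublets. Nuclei were clustered with the Leiden method (resolution 1, 2000 variable genes without the 4 TCF/LEF genes, 30 components, 15 neighbours) and named from marker lists. Neurons were clustered again alone, and 2 of their sub-clusters once more.

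UMIs were summed per library and class as CPM, with exact Poisson intervals. Ratios carry exact conditional binomial 95% intervals (scipy 1.17.1), checked on simulated counts, and shares carry exact Clopper-Pearson intervals. The simulated counts were Poisson without spread between nuclei, so the check does not bear on such spread in the real counts. All cover counting error only, and 1 library per age allows no test. The genes, lists and rules were chosen with earlier results of these data known. Named were the 4 genes, the 5 genes most like each (1 is not reported here), and per class the listed Wnt genes (4 per direction in neurons, 2 in other classes) whose interval bound nearest to equality lay farthest from it. Nkd1, Notum, Sp8, Axin2, Wnt1, Fzd2, Wnt4, Rspo1, Wnt2b in oligodendrocytes and Dkk2 in thalamic-type neurons were named after their values were seen, as were the subgroups. Alternatives covered filters, scaling, free RNA, thinning and the mix of neuron types.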

Additional observations from a re-analysis of the deposited data

Results flagged for a closer look

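Tcf7l2 differed between the libraries in opposite directions in 2 cell groups, each with a counting interval clear of equality. In the GABAergic sub-cluster led by Zfpm2, Nr2f2 and Ecel1 the ratio aged over young was 1.98 (1.17 to 3.45), from 43 and 23 UMIs, of which 1 young nucleus held 11. In microglia the ratio was 0.714 (0.591 to 0.860). The difference between these ratios was not tested.

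Barcodes outside the limits on genes and mitochondrial counts also held Tcf7l2. The aged library had 1183 such UMIs (27.8% of its Tcf7l2, 54.7 CPM) and the young library 825 (16.8%, 44.8 CPM). These barcodes enter no comparison above.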

How the results depend on the processing

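Of 93 alternative values, 82 kept their direction and stayed within the counting interval (counts: within 1.5 times), 9 moved beyond it and 2 reversed. For Lef1 in neurons (log2 ratio 1.46), weighting sub-clusters alike gave 0.76, weighting sub-clusters and subgroups alike 0.14, and leaving out the thalamic-type sub-cluster -0.42. For Tcf7l2 in neurons (0.26) the same settings gave -0.0913, 0.0122 and 0.00173. Lef1 in thalamic-type neurons (1.06) was 0.32 with subgroups weighted alike; the settings with subgroups, or without the thalamic-type neurons, were chosen after seeing the data. Pairs of gene and cell group with a UMI in at least 10% of nuclei in both libraries numbered 14, and 8 after thinning to 1000 UMIs. Tcf7l2 had the highest level of the 4 genes in 20 of 31 groups, and in 12 per kilobase of span. The 8 Wnt genes past 1.5-fold in neurons became 2 at 2-fold and 2 with at least 200 UMIs per gene. In oligodendrocytes the median gene had a log2 ratio of 0.10, so Tcf7l2 there was lower by that much more against the median gene. The free RNA share was estimated at 46.7% aged and 43.9% young in endothelial cells. With it subtracted the ratio of Lef1 there was 2.11. Over the alternatives that ratio ran from 1.62 (doublets kept) to 2.83 (at least 1000 genes). No paired analysis was possible because there was 1 library per age. Depth limits committed precursors, endothelial cells and Avp Oxt neurons most.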
